A study of Drosophila melanogaster with 2 samples.

Results

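The small heat shock genes Hsp22, Hsp23, Hsp26, Hsp27, Hsp67Ba and Hsp67Bc, together with Hsp68 of the Hsp70 family and Hsp83 of the Hsp90 family, were examined for peaks of the transcription factor aop. They were chosen by name and are 8 of 13968 protein-coding genes on the chromosome arms of Drosophila melanogaster. A peak was counted at a gene when its summit lay in the gene body or had that gene's transcription start site (TSS) as its nearest protein-coding TSS. The study mapped aop by chromatin immunoprecipitation and sequencing (ChIP-seq) in transgenic flies with an insertion that expresses aop-eGFP, the protein joined to a green fluorescent tag (eGFP), and precipitated it with an antibody against GFP. Its single group had 2 biological replicates of whole embryos, of an age of 0 to 24 h, and the labels name no heat treatment. Control libraries were not analysed here, so no treated and untreated groups were compared. Whole embryos mix all cell types and stages, so strong binding in few cells and weaker binding in many cannot be told apart.

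The aop protein, also called Yan, is an ETS-domain repressor that is antagonised by receptor tyrosine kinase signalling, and ETS factors recognise a GGAA core. Small heat shock proteins hold unfolding proteins in a soluble state, Hsp70-family proteins refold them, and Hsp83 stabilises client proteins that include kinases and hormone receptors. On heat stress the trimeric factor Hsf binds heat shock elements, arrays of inverted GAA units, while the GAGA factor encoded by Trl keeps many of these promoters open beforehand. Hsp23, Hsp26 and Hsp27 are also active in unstressed development and respond to ecdysone, and Hsp83 is expressed in most unstressed cells.

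The authors' lists hold 147076 ranked candidates and 1725 thresholded peaks for both replicates together. The signal of each is the authors' own enrichment value, used here only to describe and rank places within a list. Every peak of the thresholded lists had a score of at least 830, where the score is the rank score of the irreproducible discovery rate (IDR) procedure and its upper limit is 1000. No counts are given, so the depth behind a signal is unknown. In the combined lists, 99.8% of candidates and 92.3% of thresholded peaks had the same width of 256 bp. Whether a motif lies inside or outside a peak therefore describes listed coordinates, not the extent of binding. Each replicate also has its own list, with 93043 candidates in replicate 1 and 113872 in replicate 2. Ranked candidates covered 26.6% of the chromosome arms, so that a candidate by itself says little. At thresholded peaks the combined signal was close to the sum of the replicates' signals (median ratio 0.997 over 1631 peaks), and the signal of replicate 2 was a median of 1.47 times that of replicate 1, so a level from one list is not set against a level from another.

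Hsp27 and Hsp83 had thresholded aop-eGFP peaks, and the other 6 heat shock genes had none. The 2 genes stand beside 1451 of 13968 protein-coding genes with at least 1 thresholded peak (10.4%), and with 8 genes this count is a description without a test. Hsp27 carried 1 peak just upstream of its TSS, and Hsp83 carried 2, around its promoter and in its intron. Of the 8 genes, Hsp27 alone passed the threshold in both replicates' own lists, and the share of all genes that did so was not counted. In replicate 1, 1 of the 8 genes had a thresholded peak, against 4.35% of all genes, and in replicate 2 it was 2 of the 8, against 7.45% of all genes. The conservative list of both replicates held the same 3 peaks at the same 2 genes, against 9.22% of all genes. All 8 genes had ranked candidates, as had 93.7% of all genes in the combined list, 90.9% in replicate 1 and 93.1% in replicate 2.

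The sequences under the Hsp27 peak and the Hsp83 intron peak are shown because these are the strongest places at each gene. They are given on the plus strand of dm6 (Release 6), at chr3L:9383775-9384030 for Hsp27 and chr3L:3194159-3194414 for Hsp83. Capitals mark the ETS motif CGGAA and the GAGA element GAGAG on either strand, and the Hsp83 intron peak holds neither. The shorter core GGAA was not searched and is not marked.
Hsp27 peak: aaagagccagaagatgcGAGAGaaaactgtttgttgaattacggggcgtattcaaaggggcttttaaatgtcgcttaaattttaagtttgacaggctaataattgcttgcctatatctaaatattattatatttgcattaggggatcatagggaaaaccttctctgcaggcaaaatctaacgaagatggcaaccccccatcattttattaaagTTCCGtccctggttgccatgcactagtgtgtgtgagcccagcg
Hsp83 intron peak: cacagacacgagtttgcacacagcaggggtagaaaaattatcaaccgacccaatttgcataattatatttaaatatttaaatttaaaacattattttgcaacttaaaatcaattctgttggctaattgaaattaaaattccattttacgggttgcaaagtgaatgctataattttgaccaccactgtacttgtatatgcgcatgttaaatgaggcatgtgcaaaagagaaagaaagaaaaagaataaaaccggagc
Of the second Hsp83 peak, at chr3L:3192954-3193209, the 30 bases around its heat shock element are shown, from chr3L:3193137-3193166 on the plus strand, with the element GAANNTTC in capitals.
Hsp83 promoter peak, heat shock element: agaagcctctaGAAGTTTCtagagacttcc

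Hsp27, an ecdysone- and heat-inducible small heat shock protein found in the nucleus, had the strongest candidate of the 8 genes. The summit of its peak was intergenic, 160 bp upstream of the TSS (-160 bp). Its signal was 132.9 in the combined list, which ranked 181 of 1725 thresholded peaks and was 2.05 times their median of 64.9. In the replicates' own lists the place had a signal of 58.7 in replicate 1, rank 187 of 93043, and of 76.6 in replicate 2, rank 217 of 113872. The score was at the limit of 1000 in all 3 lists, and the replicates' summits lay 23 and 14 bp from the combined one (-23 and -14 bp). Both replicates thus placed the peak at nearly the same bases and at nearly the same rank. By strongest candidate, Hsp27 ranked 198 of 13968 genes, with 98.6% of genes lower.

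The other 7 candidates at Hsp27 were all far weaker and none was thresholded. They ranged from 2.14 to 27.5 in the combined list. Of these, 2 lay in the gene itself, at +246 and +747 bp, with signals of 21.8 and 14.6. The remaining 5 lay 3916 to 6782 bp downstream, inside the gene CG4080. They were counted at Hsp27 because its TSS was the nearest protein-coding TSS. The signal at Hsp27 was therefore concentrated in 1 place upstream of the gene.

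Hsp83, the Drosophila cytosolic Hsp90, had peaks of intermediate strength. The intron peak had the higher signal in the combined list, 70.4, at rank 713 of 1725 and 1.09 times the thresholded median. Its summit lay 1071 bp downstream of the second annotated TSS. The replicates differed more here than at Hsp27. In replicate 1 the signal was 23.7, at rank 1675 with a score of 25, and in replicate 2 it was 48.1, at rank 640 with a score of 1000. The intron peak was thresholded in replicate 2 and not in replicate 1.

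The Hsp83 promoter peak had a signal of 60.7, at rank 1013 of 1725 and 0.936 times the thresholded median. Its summit lay in the first exon of the longer transcript, in the 5' UTR, 113 bp downstream of the first TSS, and 1205 bp from the summit of the intron peak. In replicate 1 its signal was 32.3, at rank 677 with a score of 678, and in replicate 2 it was 33.8, at rank 1524 with a score of 695. Both scores were under 830, so this peak was in neither replicate's thresholded list although the combined lists hold it. The order of the Hsp83 places also turned between libraries: the promoter place was the stronger in replicate 1 and the intron place in replicate 2. Hsp83 nonetheless took similar places among all genes, with 95.5% of genes lower in replicate 1 and 95.6% in replicate 2.

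**Figure D1:**
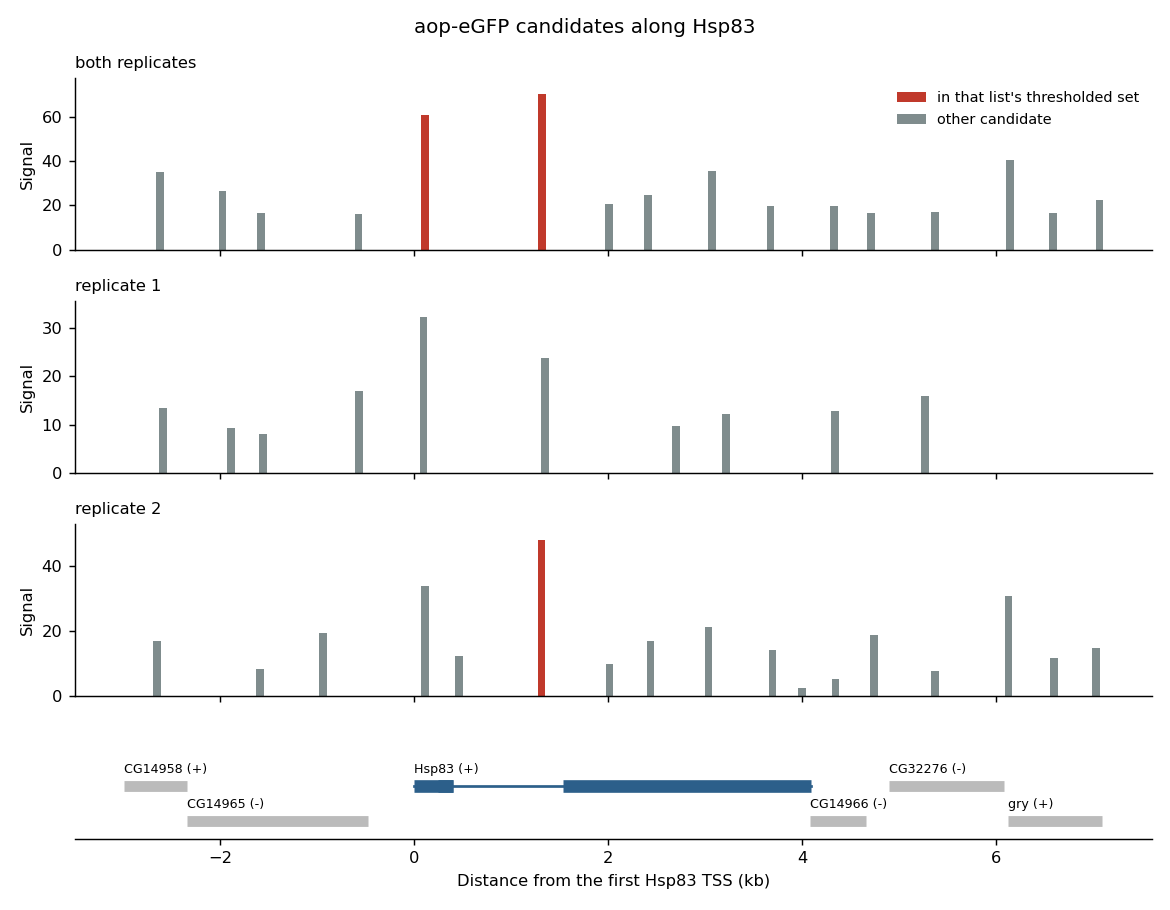
Signal of aop-eGFP candidates (y axes, authors' units, each list on its own scale) along Hsp83, by distance in kb from its first TSS, for both replicates together and for replicates 1 and 2. Red bars are thresholded in the list shown, grey bars are other candidates, and the track below shows Hsp83 exons in blue and neighbouring genes in grey. The promoter and intron places stand at 60.7 and 70.4 in the combined list, and the intron place alone is red in replicate 2.

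The third candidate of Hsp83, at +2827 bp from its nearer TSS, had a signal of 35.6 and a score of 299 in the combined list. The replicates' signals there were 12.2 and 21.2. It is one of 4 candidates at Hsp83 that were not thresholded, of which the lowest had a signal of 19.9.

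Among the genes without a thresholded peak, Hsp67Bc came closest to the threshold. Hsp67Bc is a small heat shock protein known to work with the BAG-domain protein starvin in autophagy. Its strongest candidate lay 32 bp downstream of its TSS with a signal of 36.5 and a score of 509, a global IDR of 0.0592. The lowest signal of a thresholded peak at the 8 genes was 60.7. The place had a signal of 18.97 in replicate 1, at rank 4338, and of 16.0 in replicate 2, at rank 22949. A second candidate of Hsp67Bc, inside its coding sequence at +552 bp, had 34.0 in the combined list. Hsp67Bc and Hsp22 are divergently transcribed, and the stronger place also lies within 500 bp of the first Hsp22 TSS.

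Hsp26, a cytosolic small heat shock protein, had a candidate over its promoter on which the replicates disagreed. Its summit lay 29 bp upstream of the first TSS (-29 bp), with a signal of 35.5 and a score of 214 in the combined list. In replicate 1 the place had a signal of 21.8 and ranked 2352, and in replicate 2 it had 10.4 and ranked 61860. The replicate 1 candidate was that library's strongest at any of the 6 genes without a thresholded peak in the combined list. Replicate 2 put the same place below its own median candidate of 11.0. The other 3 candidates of Hsp26 ranged from 15.1 to 24.98.

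Hsp22, the mitochondrial small heat shock protein, differed between replicates in the opposite direction. Its strongest combined candidate, at +184 bp from the second TSS, had a signal of 26.5, with 9.89 and rank 41915 in replicate 1, and 21.0 and rank 8183 in replicate 2. A place at -504 bp had 23.9 in the combined list, with 7.91 and rank 59674 in replicate 1, and 22.7 and rank 5804 in replicate 2. Replicate 2 ranked both places higher, and none of these was thresholded. Hsp22 shares its span with CG4456, listed in older annotation as Hsp67Bb, so that its candidates cannot be given to either gene alone.

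Hsp23, a cytosolic small heat shock protein, had 2 candidates with signals of 21.7 and 20.5. The stronger sat at the promoter, at -21 bp, and no candidate of either replicate overlapped it. It was the 1 place of 33 at the 8 genes for which that was so. The weaker, at +531 bp, had 12.5 in replicate 1 and 11.7 in replicate 2.

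Hsp67Ba, another member of the alpha-crystallin family, had 4 candidates, of which the strongest at 22.97 lay inside its gene body, 1236 bp downstream of its TSS. Hsp26 has the nearer TSS, at -871 bp, so both genes were assigned that place. Its replicate signals were 8.01 and 17.8. The candidate nearest the Hsp67Ba TSS, at -94 bp, had 12.1, which is below the median of all candidates of 15.8.

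Hsp68, a stress-inducible Hsp70-family protein, lies on another arm, 3R. Its 4 candidates had signals of 13.6 to 28.5, all inside the gene body and none upstream of the TSS. The strongest, at +312 bp, had 11.996 in replicate 1 and 14.1 in replicate 2. No ranked candidate of the gene reached its promoter, read from -400 to +50 bp.

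Set against all protein-coding genes, the 8 genes were split. By strongest candidate in the combined list, the share of genes that were lower was 98.6% for Hsp27, 94.9% for Hsp83, 74.4% for Hsp67Bc, 72.0% for Hsp26, 47.9% for Hsp68, 39.8% for Hsp22, 26.6% for Hsp67Ba and 22.7% for Hsp23. Their median strongest candidate had a signal of 32.0, against 29.0 over all genes, and 4 of the 8 lay below the median of all genes. They held a median of 4 candidates each, against 6 over all genes. By strongest candidate under this rule of assignment, the 8 genes as a set were close to the typical gene. Hsp27 and Hsp83 stood above it. The median signal of all their candidates was 21.8, against 15.8 over all candidates. The closeness depended on the rule: with only summits within 500 bp of a TSS counted, all but Hsp67Ba, at 33.0%, lay above the median gene.

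The order of the lower 6 was not stable between replicates. In replicate 1, the share of genes lower was 76.6% for Hsp67Bc, 86.2% for Hsp26, 31.1% for Hsp68, 20.2% for Hsp22, 14.2% for Hsp67Ba and 34.3% for Hsp23. In replicate 2, it was 34.97% for Hsp67Bc, 46.2% for Hsp26, 40.5% for Hsp68, 71.9% for Hsp22, 46.2% for Hsp67Ba and 15.6% for Hsp23. Hsp27, with 98.6% and 98.5%, lay above Hsp83 in both libraries, and Hsp83 lay above the other 6 in both. Among the lower 6, neighbours in the combined order overlapped in their replicate ranges except Hsp26 and Hsp68, where Hsp26 was higher in both. In replicate 2 the Hsp26 value came from the place inside Hsp67Ba that both genes were assigned, with a signal of 17.8. The Hsp26 promoter place had 10.4 there, below the strongest Hsp68 candidate at 16.9.

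**Figure D2:**
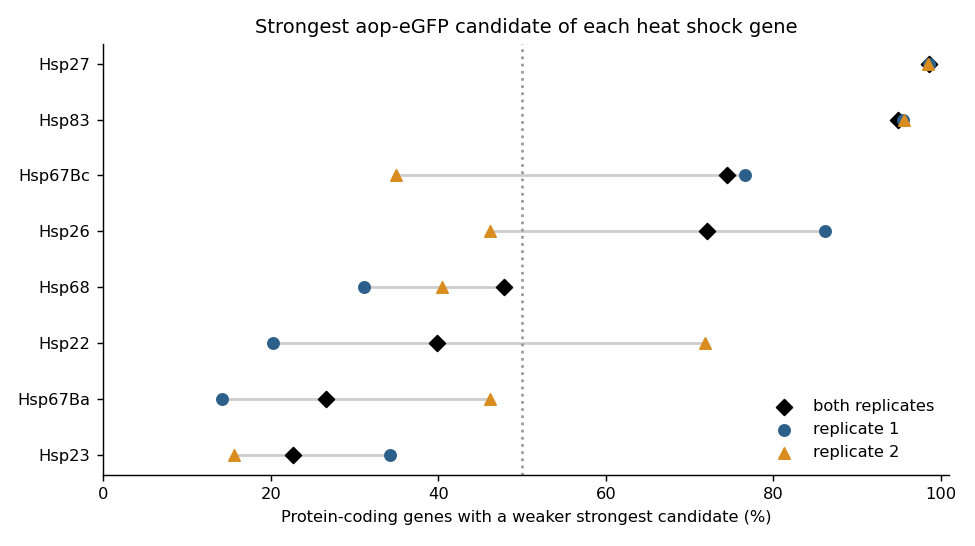
Share of protein-coding genes (x axis, %) whose strongest aop-eGFP candidate is weaker than that of each heat shock gene (rows), for the combined list (diamonds), replicate 1 (circles) and replicate 2 (triangles). The grey line joins the lowest and highest of the 3 values and the dotted line marks the median gene. Hsp27 and Hsp83 lie at the right in all 3 lists, and the other 6 genes spread widely, with Hsp22 at 20.2% in replicate 1 and 71.9% in replicate 2.

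Over all 33 distinct candidates at the 8 genes, 23 overlapped a candidate of replicate 1, 27 one of replicate 2, 18 both and 1 neither. Neither these counts nor those by feature below were made over all ranked candidates. They cannot be called high or low. At their summits 18 lay in coding sequence, 5 in 5' UTRs, 5 in introns, 3 in intergenic sequence and 2 in noncoding exons. The median signal was highest for the 3 intergenic places, at 35.5, and was 21.2 for those in coding sequence. With 3 intergenic places, 1 of them the Hsp27 peak, this is a description of few values.

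**Figure D3:**
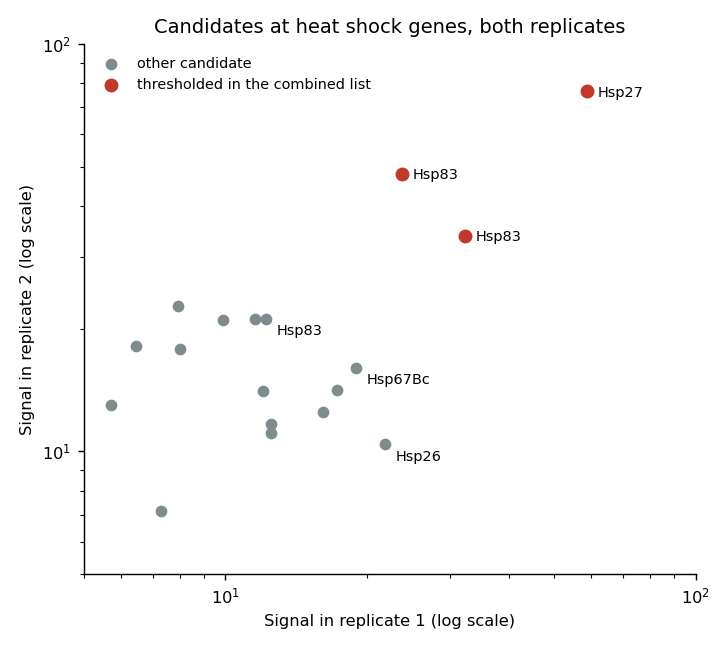
Signal in replicate 1 (x axis, log scale) and replicate 2 (y axis, log scale), in the authors' units, at the 18 candidates of the heat shock genes that overlap a candidate of both replicates. Red points are thresholded in the combined list and grey points are not; the 3 strongest grey points are named. Hsp27 lies highest on both axes at 58.7 and 76.6, and the grey points lie below all red ones on both axes.

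Within the 67B cluster, 6 of the heat shock genes lie in 14184 bp (chr3L:9371511-9385694), so the Hsp27 peak could be set against its close neighbours in the same list. The cluster's heat shock genes were together assigned 23 candidates in the combined list. Some of these lie past the end of the span, inside CG4080, with the Hsp27 TSS as the nearest. Candidates of CG4461 within the span are not among them. The Hsp27 peak at 132.9 was 3.64 times the next, Hsp67Bc at 36.5, and 6.11 times the median of the rest, 21.7. In replicate 1 it was 2.69 times the next, Hsp26 at 21.8, and in replicate 2 it was 3.37 times the next, Hsp22 at 22.7. The second strongest gene of the cluster thus changed from list to list, and Hsp27 was first in each.

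**Figure D4:**
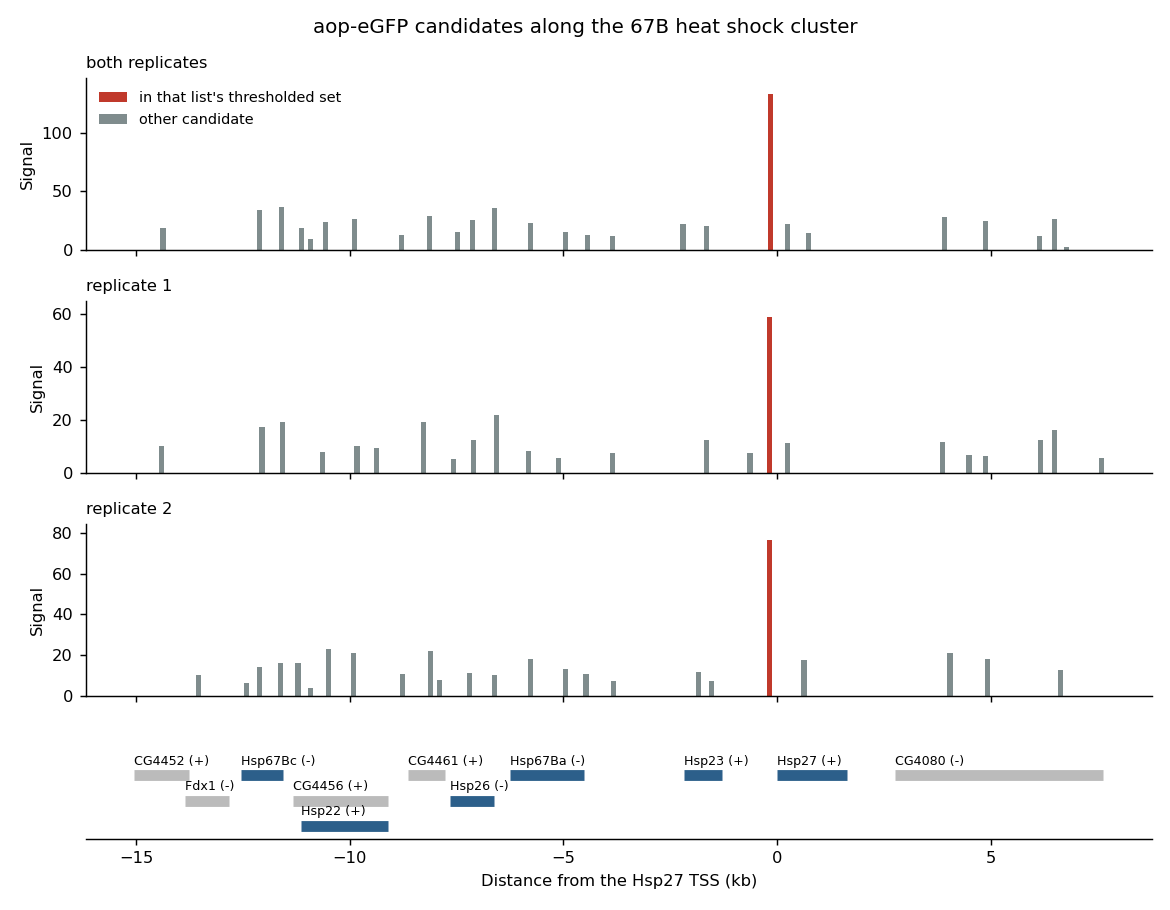
Signal of aop-eGFP candidates (y axes, authors' units, each list on its own scale) along the 67B cluster, by distance in kb from the Hsp27 TSS, for both replicates together and for replicates 1 and 2. Red bars are thresholded in the list shown and grey bars are other candidates; the track below shows the heat shock genes in blue and other protein-coding genes in grey, with their strand. 1 red bar stands upstream of Hsp27 in every list, at 132.9, 58.7 and 76.6.

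No further thresholded peak lay close to either gene. On the left of the Hsp27 peak the next was 42.9 kb away at PGRP-LC, with a signal of 48.0, and on the right it was 39.2 kb away at aay, with 113.4. For the Hsp83 peaks the next was 109.5 kb to the left at PAN3, with 61.6, and 28.7 kb to the right at RpL28, with 60.4. Within 10 kb, 3 other protein-coding genes lay near the Hsp27 peak and 12 near the Hsp83 peaks, and 0 of either had a thresholded peak. Their strongest candidates reached 35.5 near Hsp27, at CG4080, and 40.6 near Hsp83, at gry.

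The genes whose pattern over the 2 replicates was most like that of Hsp27, by the summed absolute log10 ratio of gene ranks, were Atf3, sbb and RhoGAP93B. Atf3 had 58.3 in replicate 1 and 75.4 in replicate 2, sbb had 57.5 and 75.9, and RhoGAP93B had 59.3 and 78.0, against 58.7 and 76.6 for Hsp27. This is a likeness of rank over 2 libraries.

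The promoter sequences were searched for short motifs on both strands, from -400 to +50 bp of each TSS. A heat shock element pair was GAANNTTC or TTCNNGAA, and 22.9% of 19630 promoters held at least 1. Hsp68 held 6 pairs, Hsp26 5 and Hsp23 3, while Hsp67Ba held none. At least 4 pairs were found in 20 promoters of 19630 (0.102%). Hsp68 and Hsp26, with the most pairs, had no thresholded aop-eGFP peak. Only 10.4% of all protein-coding genes had one, so its absence at these genes is the common case.

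The upstream sequences of Hsp26, at chr3L:9377428-9377727, and Hsp68, at chr3R:24057311-24057510, are shown for these arrays, 5' to 3' on the minus strand, up to the base before the first TSS. Capitals mark heat shock element pairs and GAGAG on either strand, which reads CTCTC where it lies on the other strand. Of the 5 Hsp26 pairs, those at -317 and +3 bp from the first TSS lie outside the stretch shown.
Hsp26 upstream: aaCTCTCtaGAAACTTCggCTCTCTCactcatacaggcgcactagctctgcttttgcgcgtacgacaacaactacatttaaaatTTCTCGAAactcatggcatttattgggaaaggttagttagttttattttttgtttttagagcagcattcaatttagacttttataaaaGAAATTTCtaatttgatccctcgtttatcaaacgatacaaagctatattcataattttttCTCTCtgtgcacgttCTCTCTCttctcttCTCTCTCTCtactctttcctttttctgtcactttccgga
Hsp68 upstream: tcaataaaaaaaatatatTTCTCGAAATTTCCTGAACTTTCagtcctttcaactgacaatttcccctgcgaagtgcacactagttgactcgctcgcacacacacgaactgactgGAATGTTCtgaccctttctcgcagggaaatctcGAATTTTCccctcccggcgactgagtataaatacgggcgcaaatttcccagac
The Hsp68 array holds 4 pairs in a row of which neighbours share a unit. From either Hsp26 TSS GAGAG was found 9 times, and in the Hsp68 promoter 0 times, against a share of 42.0% of promoters with at least 1.

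At Hsp27 the heat shock element and the peak lay side by side. The single pair of the Hsp27 promoter began at -338 bp, upstream of the peak, which spanned -288 to -33 bp. The 112 bases directly before the peak, chr3L:9383663-9383774 on the plus strand, are shown with the pair and the GAGA elements in capitals.
Hsp27 distal: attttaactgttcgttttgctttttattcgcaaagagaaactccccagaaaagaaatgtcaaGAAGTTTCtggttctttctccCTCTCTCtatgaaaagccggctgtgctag
Inside the peak, GAGAG lay at -271 bp, near its left edge, and the ETS motif CGGAA at -75 bp, on the minus strand. Within 100 bp of the summit CGGAA was found, as it was in 31.0% of thresholded peaks and 30.4% of ranked candidates, shares that differ little. Within 50 bp it was not found. The longer ETS motif CCGGAAGT was absent there, and was found in 1.65% of thresholded peaks and 0.516% of ranked candidates.

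At Hsp83 the heat shock element shown above lies inside the promoter peak, 68 bp upstream of the second TSS (-68 bp). It was the 1 pair of 20 distinct pairs in the 8 genes' promoters that lay inside a thresholded peak, and 4 lay inside a ranked candidate. The shares over all promoters were not counted, and ranked candidates covered 26.6% of the chromosome arms. These counts therefore cannot be called high or low. The Hsp83 match lay within 100 bp of the summit and not within 50 bp. GAANNTTC was found within 100 bp of the summit in 5.02% of thresholded peaks and in 5.02% of ranked candidates. A match describes the letters only. None of CGGAA, CCGGAAGT or GAGAG was found within 100 bp of either Hsp83 summit. The bare GGAA core was not searched. Its letters occur, on either strand, in the sequences printed for the Hsp83 and Hsp27 peaks, so these peaks cannot be said to lack it. GC content in the same windows was 37.8% at Hsp27, 46.8% at the Hsp83 promoter peak and 28.4% at the Hsp83 intron peak, against a median of 40.8% over thresholded peaks on the arms.

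**Figure D5:**
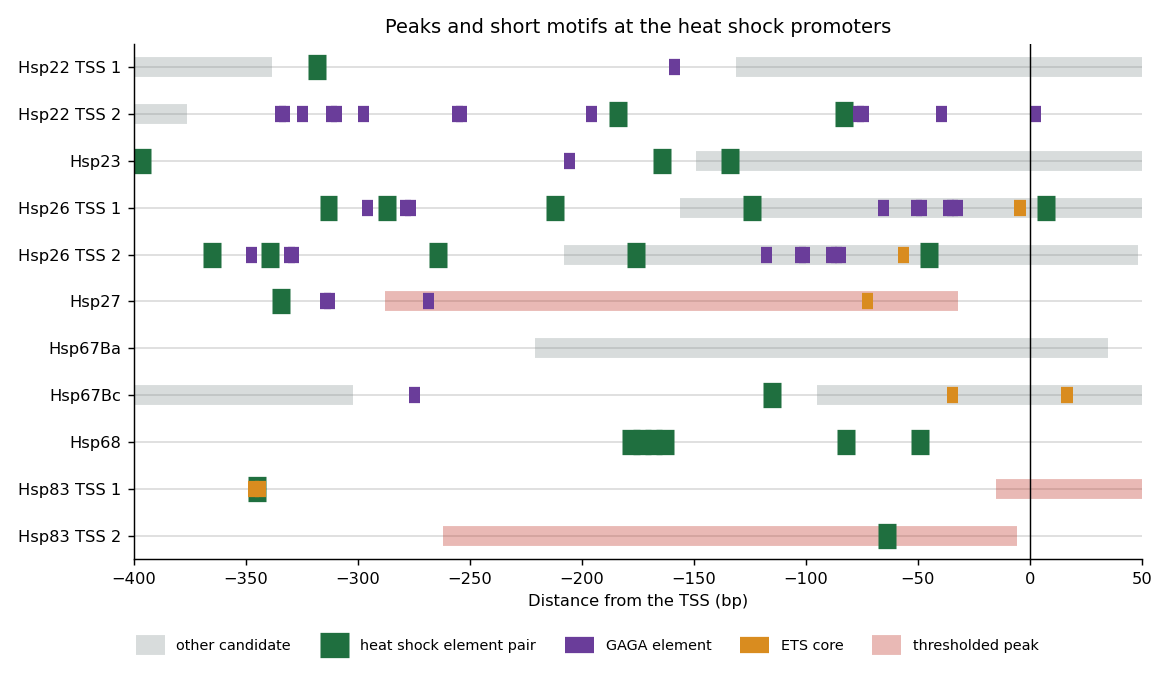
Motif matches and peaks from -400 to +50 bp of each TSS (x axis, bp) of the 8 heat shock genes (rows, with genes of several TSSs on several rows). Pink bands are thresholded peaks and grey bands other ranked candidates. Green marks are heat shock element pairs, purple marks GAGA elements and orange marks the ETS motif CGGAA, in each case as drawn from the letters searched. The Hsp27 band spans -288 to -33 bp, to the right of its green mark at -338 bp, and Hsp68 has 6 green marks and no band.

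Other chaperone genes were read beside the 8, from lists of 43 names of which 41 matched the annotation. 5 of the 41 had a thresholded peak, against 10.4% of all genes, and their median strongest candidate was 30.8, against 29.0 over all genes. Of 5 other alpha-crystallin genes, CG14207 had one, at -1073 bp from its TSS, with a signal of 65.8, 13.7 in replicate 1 and 49.0 in replicate 2. None of 10 matched Hsp90-family and co-chaperone genes had one, and their strongest candidate, at the mitochondrial Hsp90 gene Trap1, was 42.5.

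Of 12 other Hsp70-family genes, Hsp70Bc was the 1 with a thresholded peak. Its peak of 60.8 lay 6086 bp from its TSS, in coding sequence of Octbeta3R. Hsp70Ba had 2 candidates with a score of 1000 that were not in the thresholded list: the stronger, at 157.3, lay at -9661 bp from its TSS, in the alphagamma-element noncoding RNA gene, with 66.9 in replicate 1 and 92.4 in replicate 2. In the whole combined ranked list 1826 candidates reached the score minimum, and the thresholded list has 1725 lines; why these candidates are not among them is not stated in the labels. Hsp70Aa and Hsp70Ab had no candidate. The Hsp70 copies are nearly identical, so values at them are uncertain.

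The J-domain gene mrj had 2 thresholded peaks, at 191.3 and 60.2, and Csp, which encodes a J-domain protein of synaptic vesicles, had 1 at 44.8. Among 4 matched regulators of the heat shock response, Trl had 2, at 206.1 and 77.8, while Hsf, the factor that binds heat shock elements, had none and a strongest candidate of 40.8. The strongest Trl peak, with 109.2 in replicate 1 and 92.9 in replicate 2, ranked 77 of 1725, above the Hsp27 peak. It lay in an intron, at -1529 bp from the nearest Trl TSS. CG42507 has an equally near TSS, so this peak cannot be given to Trl alone.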

How the data were processed

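Chromatin from whole aop-eGFP embryos was precipitated with an anti-GFP antibody in 2 biological replicates and, per the labels, sonicated to 200 to 800 bp. The authors deposited peak lists on dm6. The signal of each peak is the deposited enrichment value, with no stated scaling, and the score is the deposited IDR rank score, limited to 1000. The deposited −log10 of the global IDR was converted to an IDR. Names of the aligner and peak caller: not given in the sources used here. According to text lists deposited with the libraries, the replicates' lists share an input file, so the replicates are not fully independent. Read depth is unknown, so no counting error can be given. In the combined ranked lists, 4 columns that name no replicate were not used.

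The 8 genes, the chaperone lists and the motifs were chosen with earlier results of these data known. Genes and TSSs came from Ensembl release 115 and sequence from RefSeq (Release 6). Replicate lists were matched to combined candidates by an overlap of at least 1 bp, taking the strongest. The genes named as most like Hsp27 were the 3 with the smallest summed absolute log10 ratio of gene rank over both replicates. Code (Python 3.11.15, pandas 2.3.3) was tested on simulated data. With 1 group of 2 replicates, no test was run.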

Additional observations from a re-analysis of the deposited data

How the results depend on the processing

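The count of 2 genes with a thresholded peak, and of 3 peaks, was the same in the conservative lists. With the replicates' own lists in place of the combined one, leaving out 1 replicate each, the counts were 1 to 2 genes and 1 to 2 peaks, and the lower values came without replicate 2. Counting summits in the gene body alone left 1 gene, Hsp83, because the Hsp27 summit lies upstream of its gene. 1 of the 3 peaks was shared by both replicates' thresholded lists. The share of all thresholded peaks that were so shared was not counted, so this cannot be called high or low. When ranked candidates were used, 3 were shared. That is the common case: at 1631 of all 1725 thresholded peaks, a ranked candidate of each replicate lay over the summit. The motif matches depended on the window around the summit. Within 50 bp, neither the CGGAA match at Hsp27 nor the GAANNTTC match at Hsp83 remained, and both counts were 0 of 3 peaks, against 1 each within 100 bp. Over all thresholded peaks, 18.7% held CGGAA and 2.30% held GAANNTTC within 50 bp. Within 250 bp, CGGAA was found at 1 of the 3 peaks, against 57.5% of thresholded peaks and 57.6% of ranked candidates. GAANNTTC was found there at 3, against 12.5% of thresholded peaks and 12.7% of ranked candidates. With only summits within 500 bp of a TSS counted for every gene, the share of genes lower rose for every heat shock gene. All but Hsp67Ba, at 33.0%, then lay above the median gene. The share was 84.8% for Hsp22, against 39.8%, through the Hsp67Bc promoter place, and the same 84.8% for Hsp67Bc. It was 83.8% for Hsp26, against 72.0%. It was 54.7% for Hsp23, against 22.7%, and 73.1% for Hsp68, against 47.9%. The strongest places of Hsp23 and Hsp68 were unchanged, and those counted for other genes changed. With the nearest TSS alone it was 12.02% for Hsp67Ba, against 26.6%. No paired analysis was possible because the series has 1 group. The lists hold no counts, so depth sets no limit that can be stated.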
